A study of Mus musculus with 6 samples.

Results

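The colony-stimulating factors and their receptors were examined in bone marrow-derived macrophages (BMDMs) co-cultured with ovarian cancer cells that had been exposed to cisplatin. The members were 4 ligands (Csf1, Il34, Csf2 and Csf3) and 5 receptor chains (Csf1r, Csf2ra, Csf2rb, Csf2rb2 and Csf3r). They were taken by gene symbol from the deposited expression table, so that 9 of 54532 listed genes were members. All 9 reached the minimum level for testing, as did 13441 genes in all.

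The study asked how tumour cells that have met cisplatin act on macrophages. Poly-T selected RNA was sequenced from 6 libraries of BMDMs co-cultured with ID8, a mouse ovarian cancer cell line derived from ovarian surface epithelium of a female mouse. The tumour cells of 3 libraries, called cisplatin libraries here, had first been exposed to 40 µM of this DNA-crosslinking platinum drug. Those of the other 3, called PBS libraries, had received phosphate-buffered saline instead. The marrow cells of both groups came from C57BL/6 mice aged 6 to 8 weeks and were described as seeded in RPMI medium with serum. No colony-stimulating factor was named among the ingredients of that medium. The labels call these cells BMDMs, whereas the study's methods call the marrow cells monocytes, and whether the ID8 cells were in contact with them or behind a membrane is not given in the sources used here. The study's methods speak of biological replicates for the sequencing and of cell experiments done in triplicate, but neither they nor the labels say whether the libraries of a group came from separate cultures or animals, so p-values measure the spread between these libraries, which may be technical.

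Colony-stimulating factors are secreted glycoproteins that keep myeloid cells alive, make them divide and steer their differentiation. CSF1 (M-CSF) and interleukin 34 both bind CSF1R, the receptor tyrosine kinase on which most macrophages depend. CSF2 (GM-CSF) binds a specific alpha chain, CSF2RA, that signals with the common beta chain CSF2RB through JAK2 and STAT5, whereas CSF3 (G-CSF) acts through CSF3R and drives the production and release of neutrophils.

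Values are FPKM, fragments per kilobase of gene length scaled to the size of the library, and are given as mean ± SD over 3 libraries. Fold changes are cisplatin against PBS in log2(FPKM + 1), so that those of weakly expressed genes are understated, and were tested with limma across all 13441 genes with Benjamini-Hochberg adjustment. A gene is said to have risen or fallen where its adjusted p was under 0.05, and to have been called where its log2 fold change was also at least 1 in size. Of the genes tested, 4.67% were called higher and 11.3% were called lower, while 32.9% rose and 35.1% fell by the adjusted p alone (68.0% in either direction). With reads recovered from the FPKM and tested by limma voom, 1227 genes were called higher and 1862 lower, against 628 and 1514 on the FPKM.

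Recovered reads ranged from 15776238 to 17924686 per library. The labelled cell type was checked against 8 macrophage markers, of which all 8 were detected and all 8 rose, although Mertk reached 1 FPKM in the cisplatin libraries only and so had to differ to be tested. Their summed level was 4115 to 4265 FPKM in the cisplatin libraries and 1594 to 1605 FPKM in the PBS libraries, most of it from Lyz2, the lysozyme of myeloid cells (3459 ± 80.4 and 1161 ± 10.8 FPKM). Markers of the ID8 and epithelial lineage moved the other way, from 1028 to 1110 FPKM in the PBS libraries to 187 to 204 FPKM with cisplatin, and 7 of the 9 tested were called lower. Cdh1, which encodes E-cadherin, was the exception and rose from 3.24 ± 0.521 to 5.41 ± 0.529 FPKM (log2 fold change 0.60, limma adjusted p = 0.00238). Krt19 and Krt8, keratins of simple epithelia, were the most abundant of the list in the PBS libraries (588 and 151 FPKM), and Msln, which encodes mesothelin, in the cisplatin libraries (61.0 FPKM), where Krt19 had 51.1 FPKM and Krt8 24.2 FPKM. By contrast, the defining markers Krt7, Epcam and Cldn4 lay below 0.5 FPKM in every library. Neutrophil markers summed to 8691 to 8929 FPKM with cisplatin and 4745 to 4905 FPKM with PBS, chiefly S100a9 and S100a8. B-cell markers summed to 432 to 442 FPKM and 188 to 195 FPKM, mast cell and basophil markers to 150 to 167 FPKM and 51.9 to 55.6 FPKM. Markers of several cell types were thus present, at levels that differed between the groups. In such bulk samples fewer cells of a type and less RNA per cell cannot be told apart, and the part of these shifts in the values below was not tested.

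Of the 4 ligands 2 were called lower and none was called higher, with 1 rising by the adjusted p alone. Of the 5 receptor chains all 5 rose on the deposited FPKM scale, and 2 of them were called higher. Over the 9 members the median log2 fold change was 0.34, beside -0.0011 over all genes tested. The groups did not overlap for 8 of the 9 members, with 6 higher and 2 lower in the cisplatin libraries. The groups were also separate for 72.4% of all genes tested, 35.2% being higher and 37.2% lower, so separation alone did not set the members apart.

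**Figure D1:**
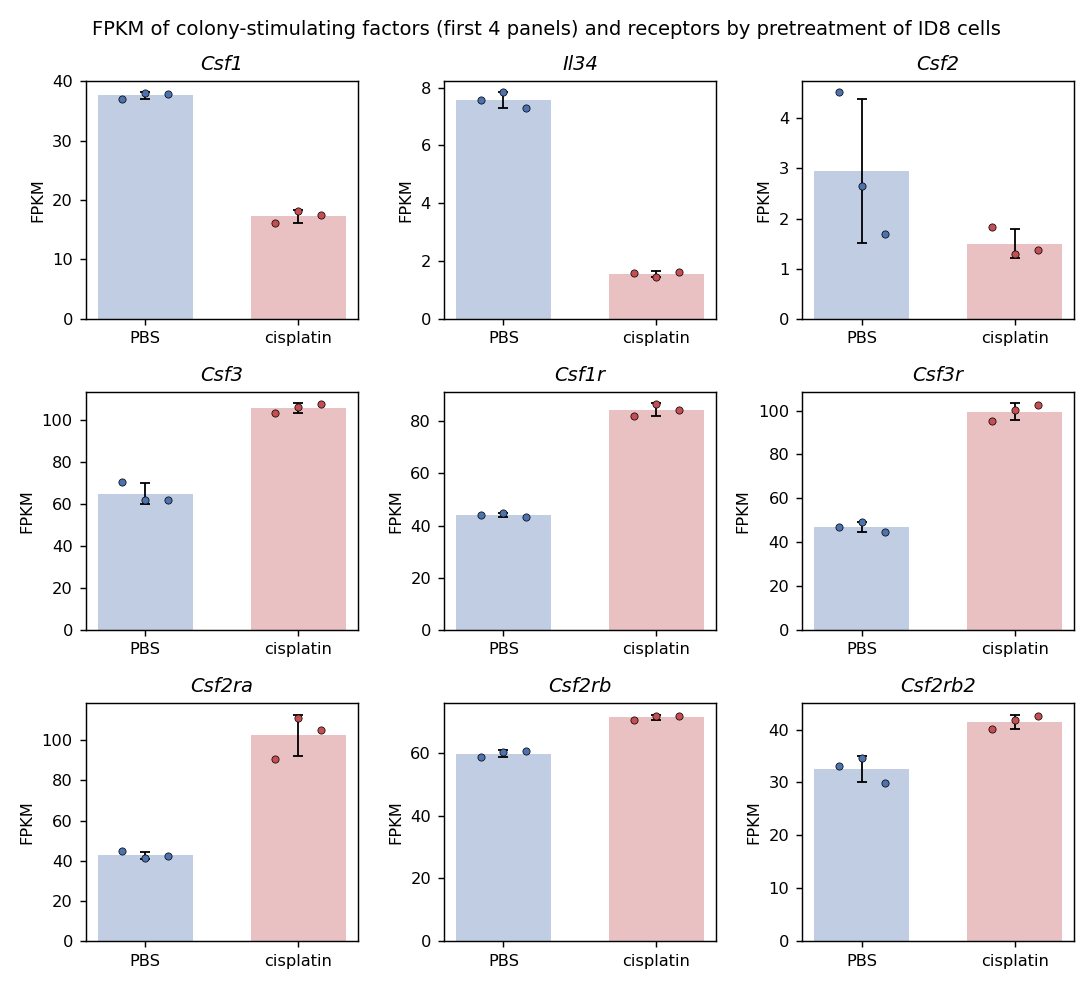
FPKM of each member (vertical axes, each from 0) in PBS and cisplatin libraries. Bars are means, whiskers are SD over 3 libraries, and points are single libraries. Csf1 and Il34 were lower in every cisplatin library than in any PBS library, Csf2 overlapped between groups, and Csf3 and the 5 receptor chains were higher in every cisplatin library on this scale. Relative to Y-linked genes the fold changes of Csf3, Csf1r, Csf2rb and Csf2rb2 turned to the opposite sign.

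Csf1, the main ligand of CSF1R, was measured at 16.1, 18.2 and 17.4 FPKM in the cisplatin libraries and at 37.0, 38.0 and 37.8 FPKM in the PBS libraries. All PBS libraries lay above all cisplatin libraries, and the values within a group were close together. The means were 17.2 ± 1.06 and 37.6 ± 0.524 FPKM, a 2.18-fold lower level with cisplatin-pretreated ID8 cells (log2 fold change -1.08 ± 0.050 SE, limma adjusted p = 2.52e-06). Between 1446 and 3459 reads lay behind each value, so counting error was small. In the ranking of tested genes Csf1 stood at percentile 89.5 in the PBS libraries and at percentile 75.1 in the cisplatin libraries. The gene (ENSMUSG00000014599) lies at chr3:107741048-107760469 on the minus strand of GRCm38.

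Il34, the second ligand of CSF1R, gave 1.59, 1.43 and 1.61 FPKM in the cisplatin libraries and 7.56, 7.83 and 7.27 FPKM in the PBS libraries. The groups were far apart, with the lowest PBS library above the highest cisplatin library by more than the spread within either. The means of 1.54 ± 0.0979 and 7.55 ± 0.279 FPKM differed 4.90-fold, the largest change among the 9 members on this scale (log2 fold change -1.75 ± 0.062 SE, limma adjusted p = 7.54e-07). The low level rested on 46 to 53 reads per cisplatin library, against 221 to 262 reads per PBS library. Il34 fell from percentile 50.4 to percentile 14.6 of tested genes. The gene (ENSMUSG00000031750, chr8:110741829-110805924, minus strand) overlaps the antisense gene Gm15895, which had 0.246 FPKM with cisplatin and 1.24 FPKM with PBS, and reads of the overlap cannot be assigned without strand.

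Both ligands of CSF1R were therefore lower where the ID8 cells had met cisplatin. Their summed level was 18.8 ± 0.995 FPKM in the cisplatin libraries and 45.2 ± 0.632 FPKM in the PBS libraries. Both calls held when each library was left out and under every other alternative tried. At a minimum of 5 FPKM, however, Il34 passed through the PBS libraries only and so had to differ to be tested. Leaving aside the scaling by Y-linked genes, the log2 fold change lay between -1.12 and -1.02 for Csf1 and between -2.22 and -1.61 for Il34. When values were scaled by Y-linked genes, which marrow cells of male mice can supply and the female ID8 line cannot, the falls were -2.04 and -2.48. The summed markers of the ID8 and epithelial lineage were 5.49-fold lower in the cisplatin libraries. Summed fibroblast markers were 3.16-fold lower, at 17.6 to 19.4 FPKM against 55.6 to 59.6 FPKM, most of it from Dcn, the matrix proteoglycan decorin, which was the 1 called of 2 tested. The part of either in the fall of these ligands was not tested.

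Csf2, which encodes GM-CSF, was the lowest member in both groups by its mean and varied most relative to its level. It was measured at 1.84, 1.29 and 1.36 FPKM with cisplatin, from 25, 17 and 18 reads, and at 4.52, 2.65 and 1.69 FPKM with PBS, from 64, 33 and 21 reads. The groups overlapped, since PBS replicate 3 lay below cisplatin replicate 1, and PBS replicate 1 was highest of all. The means were 1.498 ± 0.296 and 2.95 ± 1.44 FPKM, and the difference missed the threshold (log2 fold change -0.61, 95% interval -1.21 to -0.0049, limma adjusted p = 0.069). Relative to Y-linked genes Csf2 was called lower (-1.26, adjusted p = 0.0020), and blocking on replicate number gave an adjusted p of 0.027. Without PBS replicate 1 the log2 fold change was -0.33 (adjusted p = 0.138), and without PBS replicate 3 it was -0.85 (adjusted p = 0.0114), so single libraries set its size. The gene (ENSMUSG00000018916) lies at chr11:54247271-54249667 on the minus strand.

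Csf3, which encodes G-CSF, was the most abundant member in both groups by its mean, although with cisplatin its range overlapped that of Csf2ra. Its values were 103, 106 and 107 FPKM in the cisplatin libraries and 70.7, 61.9 and 62.1 FPKM in the PBS libraries. No PBS library reached the lowest cisplatin library. The means of 106 ± 2.15 and 64.9 ± 5.01 FPKM differed 1.63-fold, a rise that passed the adjusted p but was too small to be called (log2 fold change 0.70 ± 0.057 SE, limma adjusted p = 3.96e-05). Scaled by Y-linked genes it turned to -0.29 (adjusted p = 0.00826). It was the one ligand that rose on the FPKM scale, and it stood at percentile 97.2 of tested genes with cisplatin and percentile 94.8 with PBS. The gene (ENSMUSG00000038067) lies at chr11:98701263-98703629 on the plus strand.

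Transcripts of several colony-stimulating factors carry AU-rich elements, repeats of ATTTA in the 3′ untranslated region at which proteins of the tristetraprolin family start the decay of the message. The densest 30 bases of such repeats are shown for the 3 ligands with more than 1 copy, because the ligands that moved in opposite directions both hold them. Each window lies in the 3′ untranslated region of the member's transcript (GENCODE M21, GRCm38), at chr11:54247329-54247358 for Csf2, chr11:98702984-98703013 for Csf3 and chr3:107741109-107741138 for Csf1. They are written 5′ to 3′ on the strand of the gene, with ATTTA in capitals.
Csf2: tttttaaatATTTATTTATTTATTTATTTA
Csf3: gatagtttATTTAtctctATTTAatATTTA
Csf1: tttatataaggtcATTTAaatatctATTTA

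Csf2 had 9 copies of ATTTA, overlapping copies included, in a 3′ untranslated region of 317 bases, a number reached or passed by 0.0547% of 1827 regions of similar length. It was the only ligand with the longer element TTATTTATT, of which it had 4 copies and which 2.19% of those regions held. Csf3 had 6 copies of ATTTA in 669 bases, a number reached or passed by 1.63% of 2328 regions of similar length. Csf1 had 4 in 2111 bases, where 49.1% of regions of its length had at least as many, and Il34 had 1 in 439 bases, where 47.2% had at least as many. Of the receptors Csf1r had 3, and Csf2ra, Csf2rb, Csf2rb2 and Csf3r had none. The 2 transcripts richest in ATTTA thus differed in level, Csf3 being the most abundant member by its mean and Csf2 among the least.

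Of 10 genes for factors that bind such elements or degrade the messages they mark, none was called in either direction by limma on FPKM or by voom. At an unadjusted p under 0.05, 4 were higher and 2 were lower, and the same numbers passed the adjusted p. Their median log2 fold change was 0.080, and the changes ran from -0.70 to 0.36. Zfp36, the gene of tristetraprolin itself, was named after its value was seen, and had 49.6 ± 0.471 FPKM with cisplatin and 45.3 ± 2.46 FPKM with PBS (log2 fold change 0.13, limma adjusted p = 0.0384). Without a minimum level its limma adjusted p was 0.0721, so it did not pass there.

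Csf1r, the receptor of CSF1 and interleukin 34, was measured at 82.1, 86.8 and 84.5 FPKM in the cisplatin libraries and at 43.9, 44.7 and 43.5 FPKM in the PBS libraries. The libraries of a group lay close together and the groups far apart. The means of 84.5 ± 2.37 and 44.0 ± 0.623 FPKM differed 1.92-fold, a rise just below the size needed for a call (log2 fold change 0.92 ± 0.034 SE, limma adjusted p = 9.23e-07). It was called after quantile normalisation (1.004) and with voom (1.03). On the scale of Y-linked genes the sign turned and the difference did not pass the test (-0.057, adjusted p = 0.393). The gene (ENSMUSG00000024621, chr18:61105572-61132149, plus strand) overlaps the protein-coding gene Hmgxb3 on the other strand, at 11.2 FPKM with cisplatin and 8.81 FPKM with PBS.

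The level of Csf1 relative to that of its receptor therefore shifted. Within single libraries Csf1 was 0.196 to 0.210 times the FPKM of Csf1r with cisplatin and 0.843 to 0.870 times with PBS. As a difference of log2(FPKM + 1) this was -2.23 ± 0.046 against -0.22 ± 0.023, a shift of -2.01. The groups did not overlap, but with 3 libraries against 3 an exact two-sided permutation test cannot give a p below 0.1, which is what it gave (0.125 after Benjamini-Hochberg adjustment over 5 such differences). Because both genes are read in the same library, the shift hardly depended on scaling, and relative to Y-linked genes it was -1.98.

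Csf2ra, the ligand-binding chain of the GM-CSF receptor, gave 90.9, 111 and 105 FPKM with cisplatin and 44.7, 41.5 and 42.2 FPKM with PBS. Cisplatin replicate 1 was the lowest of its group and still lay above every PBS library. The means of 102 ± 10.4 and 42.8 ± 1.71 FPKM differed 2.40-fold, the largest rise among the members (log2 fold change 1.24 ± 0.076 SE, limma adjusted p = 1.00e-05). It was 0.25 relative to Y-linked genes (adjusted p = 0.0449). The gene (ENSMUSG00000059326) lies at chr19:61224402-61228418 on the minus strand.

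Csf2rb, the beta chain shared by the receptors of GM-CSF, interleukin 3 and interleukin 5, changed much less. It was measured at 70.3, 71.8 and 71.8 FPKM with cisplatin and at 58.6, 60.1 and 60.5 FPKM with PBS. The groups were separate because the spread within each was narrow, with means of 71.3 ± 0.865 and 59.8 ± 1.01 FPKM. The log2 fold change was 0.25 ± 0.031 SE (limma adjusted p = 0.00032). With scaling by Y-linked genes it turned to -0.73, a fall on that scale (adjusted p = 2.07e-05). The gene (ENSMUSG00000071713) lies at chr15:78325752-78353847 on the plus strand.

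Csf2rb2, a second beta chain found in mice that works with the interleukin 3 receptor only, had 40.1, 41.9 and 42.6 FPKM with cisplatin and 33.1, 34.6 and 29.9 FPKM with PBS. The groups were separate by more than 5 FPKM, with means of 41.5 ± 1.31 and 32.5 ± 2.43 FPKM. The log2 fold change was 0.34 ± 0.059 SE (limma adjusted p = 0.00179), and -0.63 relative to Y-linked genes, where it fell (adjusted p = 2.59e-05). The gene (ENSMUSG00000071714) lies at chr15:78282507-78305721 on the minus strand, beside Csf2rb. The coding sequences of the 2 beta chains were 95.2% identical over 2631 aligned bases, and 12.3% of all 50-base stretches of Csf2rb transcripts also occurred in Csf2rb2, as did 2.30% of 150-base stretches. Reads of shared stretches could be assigned to either gene or dropped, so the split between these chains is less certain than their sum, which was 113 ± 2.16 FPKM with cisplatin and 92.3 ± 2.21 FPKM with PBS.

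The chains of the GM-CSF receptor thus changed by unequal amounts. Csf2rb had 1.31 to 1.45 times the FPKM of Csf2ra in the PBS libraries and 0.646 to 0.773 times in the cisplatin libraries, so that the order of the 2 chains was opposite in the groups. The difference of log2(FPKM + 1) was 0.47 ± 0.078 with PBS and -0.51 ± 0.131 with cisplatin, a shift of -0.99 (exact permutation p = 0.1, the smallest this design allows, and 0.125 adjusted). Between the beta chains the difference was 0.86 ± 0.119 with PBS and 0.77 ± 0.029 with cisplatin, and the groups overlapped (shift -0.093, exact permutation p = 0.2). Without PBS replicate 3 that shift was -0.025.

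Csf3r, the receptor of G-CSF and a gene of the granulocyte lineage, was measured at 95.0, 100.5 and 102.5 FPKM with cisplatin and at 47.0, 49.0 and 44.5 FPKM with PBS. Every cisplatin library lay far above every PBS library. The means of 99.4 ± 3.87 and 46.9 ± 2.28 FPKM differed 2.12-fold (log2 fold change 1.07 ± 0.048 SE, limma adjusted p = 2.33e-06). It was 0.085 relative to Y-linked genes and did not pass the test there (adjusted p = 0.209). Summed neutrophil markers were 1.82-fold higher in the cisplatin libraries and the median log2 fold change of the 8 markers was 1.25, and their part in the rise of Csf3r was not tested. The gene (ENSMUSG00000028859) lies at chr4:126024550-126044440 on the plus strand.

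**Figure D2:**
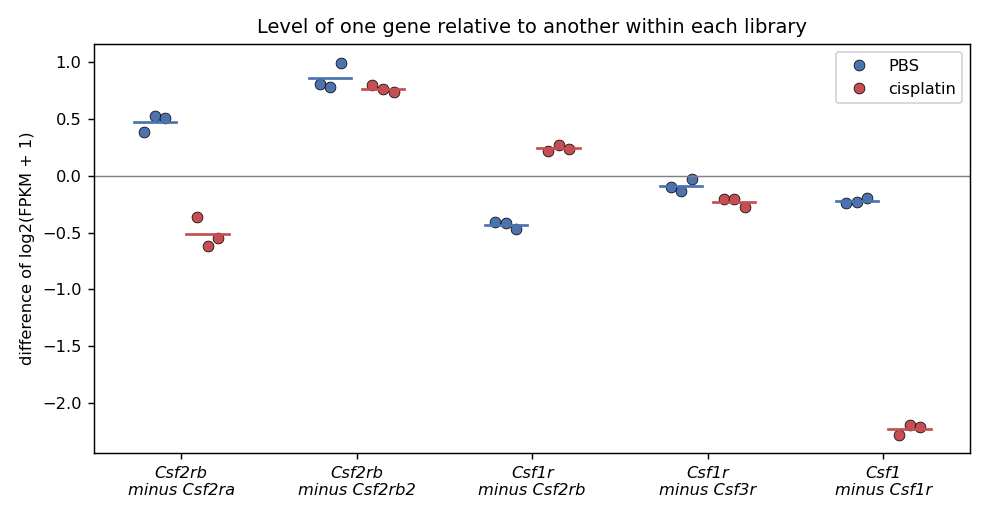
Difference of log2(FPKM + 1) between named gene pairs within each library (vertical axis), with points for single libraries and lines for group means, PBS in blue and cisplatin in red. Csf1 minus Csf1r moved from -0.22 to -2.23 and Csf2rb minus Csf2ra from 0.47 to -0.51, whereas Csf2rb minus Csf2rb2 overlapped between the groups.

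The CSF1 and G-CSF receptors rose by 0.92 and 1.07 on the FPKM scale, and relative to Y-linked genes neither passed the test (-0.057 and 0.085). The difference Csf1r minus Csf3r was -0.23 ± 0.039 with cisplatin and -0.087 ± 0.050 with PBS, a shift of -0.14 without overlap (exact permutation p = 0.1). Csf1r minus Csf2rb moved from -0.43 ± 0.032 with PBS to 0.24 ± 0.026 with cisplatin, a shift of 0.67 (exact permutation p = 0.1).

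In the order of levels, Csf3 came first in both groups, at 106 FPKM with cisplatin and 64.9 FPKM with PBS. With cisplatin Csf3, Csf2ra and Csf3r followed each other with overlapping ranges, and Csf1r, Csf2rb, Csf2rb2 and Csf1 came next, each separate from its neighbours. Il34 and Csf2 were last and overlapped, at 1.54 and 1.498 FPKM. With PBS Csf2rb was second, and Csf3r, Csf1r and Csf2ra followed at 46.9, 44.0 and 42.8 FPKM with each range overlapping the next. Csf1 came sixth, above Csf2rb2, and Il34 and Csf2 were again last but separate.

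The promoters of the receptors called higher, Csf2ra and Csf3r, are shown because these genes rose together and because myeloid promoters often bind the ETS factor PU.1. RefSeq promoter windows were at hand for 5 of the 9 members (Csf1, Csf2, Csf2ra, Csf2rb2 and Csf3r). The 250 bases before the RefSeq start (GRCm38.p6) are given 5′ to 3′ on the strand of the gene, with GAGGAA, a core of many PU.1 sites, in capitals. They lie at chr4:126024409-126024658 for Csf3r, whose start in the deposited table falls inside the window, and at chr19:61228419-61228668 for Csf2ra. The promoter of Csf1, the most abundant member called lower, is given likewise from chr3:107760470-107760719, with capitals at its match to the consensus motif of NF-kB, which reads on the other strand.
Csf3r: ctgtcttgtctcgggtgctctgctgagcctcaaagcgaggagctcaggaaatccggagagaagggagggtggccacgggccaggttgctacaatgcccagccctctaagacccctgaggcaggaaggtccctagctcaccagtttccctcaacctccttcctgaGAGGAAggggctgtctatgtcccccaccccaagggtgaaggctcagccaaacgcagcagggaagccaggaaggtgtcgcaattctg
Csf2ra: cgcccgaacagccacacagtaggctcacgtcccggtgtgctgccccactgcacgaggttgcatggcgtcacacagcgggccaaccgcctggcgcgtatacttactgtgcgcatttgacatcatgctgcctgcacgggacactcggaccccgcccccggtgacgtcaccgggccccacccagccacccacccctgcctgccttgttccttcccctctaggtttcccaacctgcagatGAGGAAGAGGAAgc
Csf1: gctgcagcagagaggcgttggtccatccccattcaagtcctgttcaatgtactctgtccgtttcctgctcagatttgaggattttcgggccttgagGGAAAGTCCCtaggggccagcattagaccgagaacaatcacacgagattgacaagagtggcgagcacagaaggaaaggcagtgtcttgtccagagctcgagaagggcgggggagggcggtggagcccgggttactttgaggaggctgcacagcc

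Motifs were searched as letters on both strands. GAGGAA occurred 2 times in the Csf2ra promoter, as neighbours without overlap, and 1 time each in those of Csf2rb2 and Csf3r, and 23.1% of 27025 promoters held it. The C/EBP motif TTGCNNCAA had 1 match in Csf3r (1.78% of all promoters), the STAT motif TTCNNNGAA 1 in Csf2rb2 (7.18%) and the NF-kB consensus 1 in Csf1 (0.94%). Neither the AP-1 motif TGANTCA (6.87%) nor the interferon-stimulated response element (3.04%) had a match in the 5 promoters. These are matches of letters and not measured binding.

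**Figure D3:**
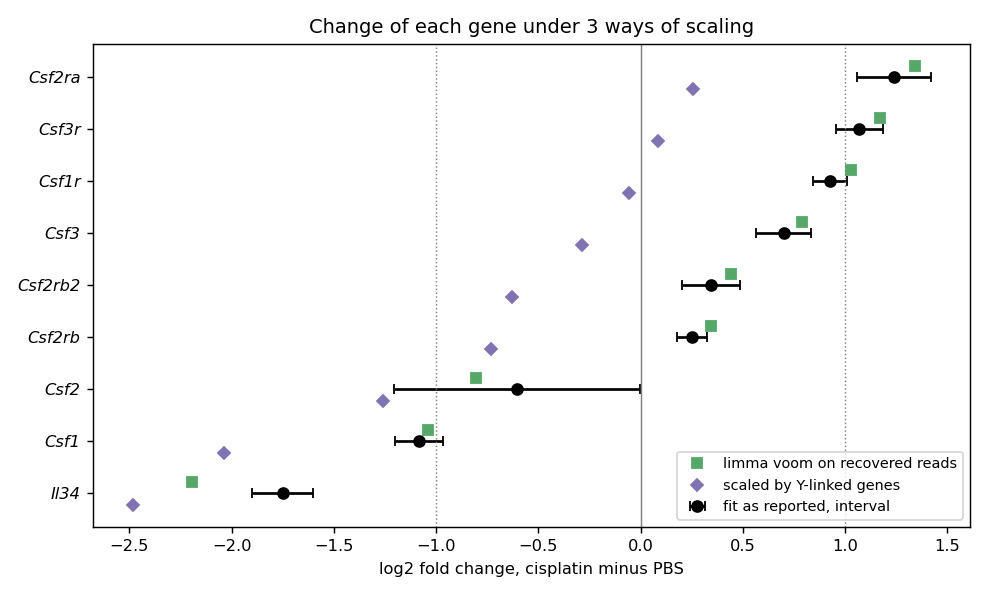
Log2 fold change of each member, cisplatin minus PBS (horizontal axis). Black points are the limma fit on log2(FPKM + 1) with 95% intervals, green squares limma voom on recovered reads, purple diamonds values scaled by Y-linked genes, and dotted lines mark a change of 1 in size. Scaling by Y-linked genes moved every member down, to -0.057 for Csf1r and 0.25 for Csf2ra, and left Il34 and Csf1 lowest.

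Scaling by Y-linked genes moved most genes down, the members among them, whereas the other scalings kept all 5 receptors positive. Y-linked genes (Uty, Kdm5d, Eif2s3y and Ddx3y) were together 1.97-fold higher with cisplatin. Singly the ratios differed, at 1.66 for Eif2s3y, 1.77 for Uty, 2.27 for Kdm5d and 2.37 for Ddx3y. Csf1r (1.92), Spi1 (1.91) and Csf3r (2.12) lay inside this range. The sign of their change on this scale thus depends on the Y-linked gene taken, which the p-values leave out. Scaling by the geometric mean of the Y-linked genes set the median change over the genes tested at -0.83. On it 85 genes were called higher and 5181 lower. On that scale Csf3, Csf1r, Csf2rb and Csf2rb2 turned negative and no member was called higher. This scaling divides every gene of a library by the same factor. Subtracting the shifted median therefore mostly undoes it, and the signs found on FPKM return almost by construction. The values relative to that median, which are no further test, were 1.09 for Csf2ra, 0.92 for Csf3r and 0.77 for Csf1r. They were 0.20 for Csf2rb2, 0.10 for Csf2rb and 0.54 for Csf3. Csf1 stood at -1.21, Il34 at -1.65 and Csf2 at -0.43.

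Genes that act with the receptors were read from lists. Of 8 transcription factors that act on the Csf1r locus, 7 rose and 1 was called higher, and the median of their log2 fold changes was 0.69. The called gene was Fli1, an ETS factor (25.1 ± 0.491 and 11.4 ± 0.495 FPKM with cisplatin and PBS, log2 fold change 1.08, limma adjusted p = 1.46e-06). Spi1, which encodes PU.1, was measured at 99.2, 109 and 110 FPKM with cisplatin and 57.3, 52.7 and 56.5 FPKM with PBS, and rose by 0.92 (adjusted p = 8.46e-06). Runx1, another factor of myeloid promoters, rose by 0.27 (adjusted p = 0.00253). Relative to Y-linked genes Spi1 turned to -0.062 and Runx1 to -0.63, and Fli1 was 0.14. The one factor that did not pass the test was Cebpb, at 143 ± 6.98 and 149 ± 14.3 FPKM.

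Downstream of CSF1R, 12 of 18 genes of its signalling and shedding rose, 5 fell and 1 did not pass the test. The median log2 fold change was 0.44, and 2 were called higher and 1 lower. The gene called lower was Src, a tyrosine kinase bound by activated CSF1R, at 3.89 ± 0.617 FPKM with cisplatin and 12.8 ± 0.821 FPKM with PBS (log2 fold change -1.496, limma adjusted p = 1.34e-05). Tyrobp, the adaptor DAP12 that works with CSF1R, was called higher at 272 ± 14.9 against 126 ± 6.28 FPKM (1.11, adjusted p = 3.31e-06). Plcg2, a phospholipase, was the other gene called higher (1.07) and was named after its value was seen. Adam17, the protease that sheds CSF1R from the cell surface, had 46.9 ± 0.726 and 49.5 ± 1.16 FPKM and did not pass the test (-0.075, adjusted p = 0.0862). Relative to Y-linked genes neither Tyrobp (0.12) nor Plcg2 remained called, since no gene of the list was then called higher.

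Of 12 genes of JAK2-STAT5 signalling, the path of the GM-CSF receptor, 4 rose (1 of them, Socs2, reached 1 FPKM with cisplatin only) and 7 fell, and none was called in either direction by limma on FPKM. The same 4 and 7 passed an unadjusted p under 0.05. The largest change was that of Osm, which encodes the cytokine oncostatin M, a STAT5 target, and was named after its value was seen. It had 19.6 ± 1.27 FPKM with cisplatin and 9.30 ± 0.492 FPKM with PBS (log2 fold change 0.998, limma adjusted p = 9.93e-06), just short of a call, and was called higher under 8 of 16 alternatives, voom among them, whereas it was 0.070 relative to Y-linked genes (adjusted p = 0.487). The median log2 fold change was -0.32. Jak2, the kinase that the beta chain carries, had 44.1 ± 1.26 FPKM with cisplatin and 60.8 ± 2.41 FPKM with PBS, a fall (log2 fold change -0.45, limma adjusted p = 7.48e-05). Stat5b fell by 0.41 on the log2 scale (adjusted p = 0.000106) and Stat5a by 0.33 (adjusted p = 0.0139, and at most 0.064 over the alternatives). Cish, a feedback inhibitor that STAT5 induces, had 2.82 ± 0.365 FPKM with cisplatin and 4.21 ± 0.146 FPKM with PBS (-0.45, adjusted p = 0.00275). The alpha chain of the GM-CSF receptor and its kinase thus moved in opposite directions on the FPKM scale, with Csf2ra at 1.24 and Jak2 at -0.45, and relative to Y-linked genes at 0.25 and -1.43.

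Of 10 myeloid genes that respond to GM-CSF, 7 were tested, 6 of these rose and 3 were called higher, the median of their log2 fold changes being 0.76. Of these, Ccl17 and Mmp12 reached 1 FPKM with cisplatin only and so had to differ to be tested, and among the other 5 genes 4 rose and 1 was called higher, with a median of 0.69. The chemokine Ccl22 had 12.1 ± 0.402 FPKM with cisplatin and 1.24 ± 0.238 FPKM with PBS (2.55, limma adjusted p = 5.96e-07). Its neighbour Ccl17 had 3.63 ± 0.453 and 0.371 ± 0.259 FPKM (1.77, adjusted p = 6.13e-05). The other gene called was the macrophage elastase Mmp12 (1.42), named after its value was seen, which was not called relative to Y-linked genes (0.93). Dendritic cells are a source of both chemokines, and summed dendritic cell markers were 31.3 to 33.8 FPKM with cisplatin and 15.7 to 17.3 FPKM with PBS, most of it from the chemokine receptor Ccr7. Of these 6 markers 3 were tested. Ccr7 (1.004) and Flt3 (1.02) were called higher, and Zbtb46 fell (-0.69, limma adjusted p = 0.00039). Flt3 reached 1 FPKM with cisplatin only and Zbtb46 with PBS only, so both had to differ to be tested. The part of dendritic cells in the rise of the list was not tested. Csf2 itself had a log2 fold change of -0.61 in the same libraries, which did not pass the test on FPKM (adjusted p = 0.069) and did relative to Y-linked genes (-1.26, adjusted p = 0.0020).

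Of 16 granulocyte genes 15 rose and 10 were called higher, and their median change was 1.38. Mpo, the myeloperoxidase of early granulocytes, had 121 ± 4.51 FPKM with cisplatin and 18.7 ± 0.590 FPKM with PBS (2.63, limma adjusted p = 6.00e-08). Prtn3, a granule protease of the same stage, had 84.2 ± 2.45 and 14.1 ± 0.593 FPKM (2.50, adjusted p = 6.68e-08). The exception was Ly6g, a surface marker of mature neutrophils, at 3.15 ± 0.365 and 2.81 ± 0.457 FPKM (0.13, adjusted p = 0.349). Both genes of the G-CSF axis, Csf3 and Csf3r, rose in the same libraries on the FPKM scale, and relative to Y-linked genes Csf3 turned negative and 3 of the granulocyte genes were still called higher.

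**Figure D4:**
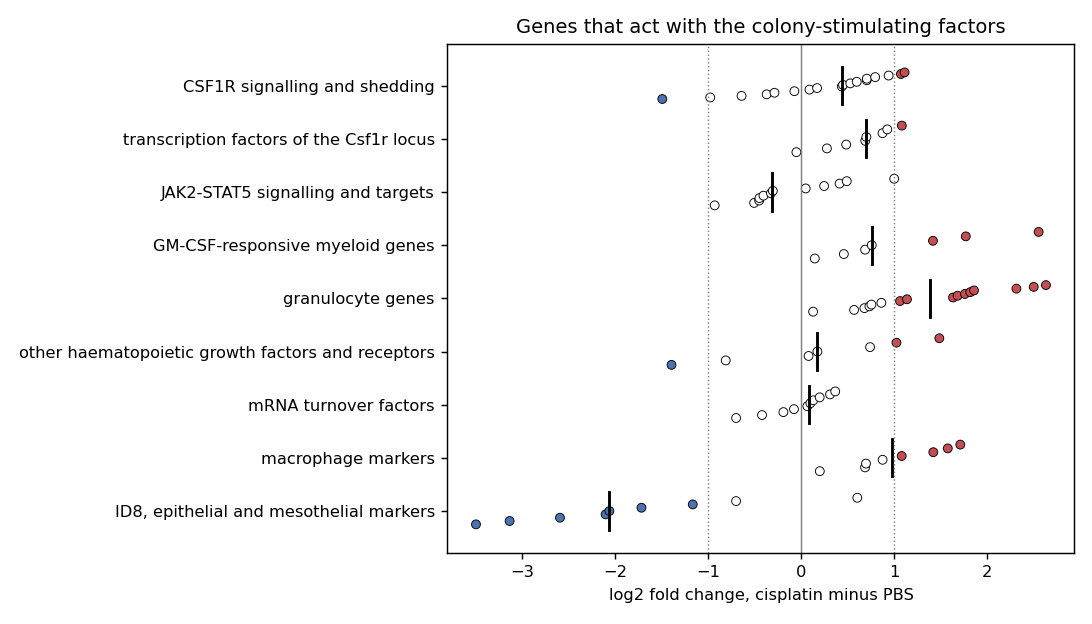
Log2 fold change, cisplatin minus PBS (horizontal axis), of each tested gene in lists of genes that act with the members and of cell markers. Red and blue points were called higher and lower, open points were not called, black bars are medians and dotted lines mark a change of 1 in size. Granulocyte genes had a median of 1.38, genes of JAK2-STAT5 signalling -0.32, and markers of the ID8 and epithelial lineage -2.07.

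Receptors and ligands of other haematopoietic factors were listed beside the members, and 7 of these 12 were tested. Of the 7, 4 rose and 2 fell, and 2 were called higher and 1 lower. Flt3 and Thpo reached 1 FPKM in 1 group only, with cisplatin and with PBS, and so had to differ to be tested, and of the other 5 genes 3 rose and 1 was called. Kit, the stem cell factor receptor and a tyrosine kinase of the same family as CSF1R, had 9.07 ± 0.0695 FPKM with cisplatin and 2.60 ± 0.151 FPKM with PBS (1.48, limma adjusted p = 8.79e-07). Flt3, named after its value was seen, was the other gene called higher (1.02), and was not called without cisplatin replicate 1 (0.994) or PBS replicate 2 (0.975). Thpo, which encodes thrombopoietin, had 0.229 ± 0.0228 and 2.24 ± 0.131 FPKM (-1.40, adjusted p = 1.32e-05). Relative to Y-linked genes Kit was 0.67 and no gene of the list was called higher.

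The alpha chains that share Csf2rb with GM-CSF were low. Il3ra, the interleukin 3 receptor chain, had 5.37, 5.48 and 5.63 FPKM with cisplatin and 4.70, 4.67 and 4.91 FPKM with PBS, a change of 0.17 (limma adjusted p = 0.0198, and at most 0.0672 over the alternatives). It turned to -0.66 relative to Y-linked genes. Il5ra, the interleukin 5 receptor chain, had 0.930 ± 0.0794 and 0.383 ± 0.0838 FPKM and was too low to be tested. Of the ligands Il3 was listed at 0 in every library, and Il5 had 0.0390 ± 0.0394 and 0.0613 ± 0.106 FPKM, so that Csf2 was the most abundant ligand of the shared beta chain in both groups.

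The tested genes with profiles nearest to each member were found by the root mean square difference of centred log2(FPKM + 1) over the 6 libraries, which with 2 groups mostly ranks genes by a similar fold change. Nearest to Csf1 were Chmp5 and Dennd6b (0.014 and 0.022), and nearest to Il34 were Usp43 and P4ha1 (both 0.037). Csf2 had no close neighbour, with Camk2n2 and Gm12230 at 0.17 and 0.19 and 0 genes within 0.1. Csf3 was nearest to Zc3h12d and Atp6v0d1 (0.032 and 0.036), with 484 genes within 0.1.

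Of the receptors, Csf1r was nearest to Mafg and Sgpl1 (0.015 and 0.023) and Csf2ra to Ciita and Rgs14 (0.038 and 0.042). Csf3r was nearest to P2ry6 and Cd200r2 (0.029 and 0.030), Csf2rb to Ncf1 and Eif4ebp2 (0.013 and 0.014) and Csf2rb2 to Ippk and Ankrd10 (0.024 and 0.030). Within 0.1 there were 67 genes for Csf2ra, 225 for Csf3r, 395 for Csf1r, 1051 for Csf2rb2 and 1964 for Csf2rb. Profiles like that of Csf2ra were thus the rarest among the receptors, and those like that of Csf2rb the most common.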

How the data were processed

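RNA of 6 libraries, 3 per group, was measured as FPKM per gene. The authors' methods name LifeScope for alignment and DESeq2 for testing, whereas the submitters' processing notes list fastp, HISAT2 2.0.5, featureCounts 1.5.0-p3 and mm10, and a strand setting is not given in the sources used here. The deposited FPKM, multiplied by gene length, were whole multiples of 1 read for 100% of values below 200 reads (tolerance 0.05), which gave the recovered reads.

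Genes that reached 1 FPKM in 3 or more libraries were tested on log2(FPKM + 1) with limma 3.58.1 under R 4.3.3 (lmFit, eBayes with a trend), all libraries and the group as the only term, and Benjamini-Hochberg adjustment. Differences between genes within libraries were compared by exact permutation tests, with scipy 1.17.1 used for their Benjamini-Hochberg adjustment. The thresholds of an adjusted p of 0.05 and a log2 fold change of 1 are those of the study. Replicates were numbered in the order of the samples. Equal numbers did not deviate together (correlations -0.10, -0.086 and -0.024). Libraries of a group differed by more than sampling noise.

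The members and lists were chosen with earlier results of these data known. Named genes were all members, chosen pathway genes, the 2 called genes of each list with the largest change, the 2 most abundant markers and the 2 nearest profiles. Others, among them the exceptions Cebpb, Ly6g and Cdh1, were named after their values were seen. Alternatives were 4 scalings, a pseudocount of 0.1, a minimum of 5 FPKM or none, voom, no trend, a replicate block and leaving out each library.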

Additional observations from a re-analysis of the deposited data

How the results depend on the processing

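Both falls of members were called under every alternative (2 genes, and 3 with Csf2 relative to Y-linked genes), although Il34 had to differ to be tested at 5 FPKM. Both rises were called under all but 1, since no member (0) was called higher relative to Y-linked genes. On that scale Csf3 was -0.29, Csf1r -0.057, Csf2rb -0.73, Csf2rb2 -0.63, Il3ra -0.66, Spi1 -0.062 and Runx1 -0.63. With voom Adam17 was 0.010. Of all genes, 973 were called higher with a pseudocount of 0.1, 1227 with voom and 85 relative to Y-linked genes, where 5181 were lower.

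Relative to Y-linked genes, called genes per list were 0 higher and 2 lower of other haematopoietic factors, 0 and 6 of CSF1R signalling, 0 and 1 of transcription factors, 7 lower of JAK2-STAT5, 3 higher of granulocyte genes, 2 higher of GM-CSF-responsive genes and 4 lower of mRNA turnover. With voom they were 3 higher of transcription factors, 1 higher of JAK2-STAT5 and 2 lower of other haematopoietic factors. A pseudocount of 0.1 and TPM likewise gave 1 higher of JAK2-STAT5 and 2 lower of other haematopoietic factors, and median-of-ratios and quantile scaling gave 1 higher of JAK2-STAT5. At 5 FPKM other haematopoietic factors had 1 higher and 0 lower, and GM-CSF-responsive genes 1 higher, since fewer genes were tested. These calls, Kit and Ccl22, reached 5 FPKM with cisplatin only and so had to differ to be tested. The cause of the other shifts was not tested.

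Leaving out each library gave 622 to 671 genes called higher and 1513 to 1531 lower, and 2 members each way. It gave 1 to 2 higher of other haematopoietic factors (1 without cisplatin replicate 1 or PBS replicate 2), 1 to 2 lower of CSF1R signalling (2 without PBS replicate 2) and 0 to 1 higher of JAK2-STAT5.

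With the replicate block 625 genes were called higher and 1515 lower, and 2 members each way. The equal numbers are not known to pair libraries, and no library correlated best with its own number. The adjusted p of Csf2 was 0.027 with the block. Among the members depth limits Csf2 most, with 17 to 64 reads per library.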
